A study of Mus musculus with 13 samples.

Results

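Transposon insertions in and beside the olfactory and vomeronasal receptor genes of the mouse were taken from 2 pools of embryonic stem cells, 1 library each. Members were the autosomal insertion sites that lay inside, or within 10 kb of, a gene whose symbol starts with Olfr, Vmn1r or Vmn2r in the GENCODE M21 annotation of GRCm38, with overlapping windows joined. They numbered 491 of the 31146 sites of a pool that had received its transposons from transfected plasmids (the plasmid pool). They numbered 4 of the 746 sites of a pool made by moving the transposons of a parental line with the transposase (the remobilized pool). Together these were 495 of 31892 sites. The rule used gene names and positions and no read values.

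The cells were F123 mouse embryonic stem cells, a hybrid of the Cast and 129 strains, grown without serum in 2i/LIF. Both pools were labelled wild type and shared 1 sequencing batch with a control without transposons, which held 1 read and 0 sites. Purified genomic DNA was transcribed outward from a T7 promoter inside a Sleeping Beauty transposon, and the RNA was sequenced across the junction of transposon and genome. The 9 clonal lines of the series carry a Rad21-dTag genotype, came from another batch and were used for 1 value in the closing section. Each pool was 1 library, so the tests compare regions or libraries and not conditions, and the intervals cover counting error only.

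Olfactory receptors (Olfr) are G protein-coupled receptors that detect odorants in the main olfactory epithelium, and each mature sensory neuron there expresses essentially a single one of them. Vomeronasal receptors of the V1R and V2R families (Vmn1r and Vmn2r) are chemosensory receptors of the vomeronasal organ. V2R proteins carry a long extracellular domain encoded by several exons, whereas the coding sequence of an Olfr or Vmn1r gene usually lies in a single exon. All 3 families sit in tandem clusters, hold many pseudogenes, and are silent in most cells outside the nose. Sleeping Beauty leaves its old place when it moves and enters the genome at TA dinucleotides, so the number of TA in a region sets how many places it can enter.

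Coding exons held 9 of the 491 plasmid pool sites, and 8 of them lay far enough inside an exon for their sequence to be read from the annotated transcripts. They are shown because an insertion there falls within the receptor protein. Each run is 30 bases of GRCm38 around the deposited base, written 5′ to 3′ along the strand of the gene, with capitals for a TA within 2 bp of that base.
Olfr194, chr16:59119612-59119641, gene on the minus strand, 6 reads: tgataagtggctcaTAtataatcggttttc
Olfr340, chr2:36453069-36453098, gene on the plus strand, 2 reads: tctcttggtacaacTAtcttactttagaaa
Vmn1r216, chr13:23099956-23099985, gene on the plus strand, 2 reads: gcattgttagtactTAgctatgctggtctt
Vmn1r3, chr4:3184409-3184438, gene on the minus strand, 1 read: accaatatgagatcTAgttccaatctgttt
Vmn2r9, chr5:108848025-108848054, gene on the minus strand, 1 read: gacatgcagataTAcatgacaagggctacg
Vmn1r68, chr7:10528018-10528047, gene on the minus strand, 1 read: aatctactatgtagtcaactatatagtaca
Olfr325, chr11:58581620-58581649, gene on the plus strand, 1 read: gctgtctataccTAcattttccctgcctcc
Vmn2r117, chr17:23460358-23460387, gene on the minus strand, 1 read: acagaactctcaccTAtatcttgctcatct

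In 5 of the 8 the TA sat exactly at the deposited base, in Vmn2r9 and Olfr325 it lay 2 bp away, and in Vmn1r68 none lay within 2 bp. The best-supported of them, in Olfr194, fell in codon 148 of 306 (annotated codons, stop included), 48.2% of the way along the coding sequence. The insertion in Olfr340 fell in codon 166 of 312 and that in Vmn1r216 in codon 275 of 298. The ninth coding site, with 2 reads at chromosome 10 position 129311194, fell in codon 5 of 309 of Olfr779.

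Another 7 sites of the plasmid pool fell in the promoters of receptor genes, taken as the 250 bases before to 50 bases after a RefSeq start (GRCm38.p6 annotation). They are shown because all 7 lay upstream of a RefSeq start and all 7 had at least 2 reads. Most of a promoter so defined lies upstream, and of all 491 plasmid pool sites in receptor windows 256 had 1 read. Neither trait was tested. GENCODE M21 places earlier starts for these genes, so by that annotation all 7 are also inside the gene: those of Olfr1094, Olfr600, Olfr960 and Olfr127 in introns and those of Olfr1193, Olfr164 and Vmn1r44 in untranslated exon sequence. They are counted there in the intron and exon numbers given further on. The layout is as before, with 30 bases along the strand of the gene.
Olfr1094, chr2:86828457-86828486, 204 bases before the start, 2 reads: ttgtgaacacaatgTAacatgaaaaaagtg
Olfr1193, chr2:88677825-88677854, 17 bases before the start, 3 reads: tcctttaggtaataTAacattcttttgagg
Vmn1r44, chr6:89893193-89893222, 66 bases before the start, 2 reads: tctgggtaagggcaTAtgttttaatgaaaa
Olfr600, chr7:103347076-103347105, 165 bases before the start, 2 reads: gtttaatgagaaccTAtttttaagaaggct
Olfr960, chr9:39622993-39623022, 117 bases before the start, 2 reads: ctagacatctctaggTAaatatcagcatcc
Olfr164, chr16:19286751-19286780, 25 bases before the start, 2 reads: aataacactgttatTAtatattctgtctcc
Olfr127, chr17:37903451-37903480, 82 bases before the start, 2 reads: tgttttatatgataTAtatatagatagata

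The 3 families comprised 1960 autosomal genes, of which 1457 were annotated as protein-coding, 502 as pseudogenes and 1 as a processed transcript. Olfr contributed 1399 genes, Vmn1r 326 and Vmn2r 235. Their windows joined into 755 stretches covering 40.16 Mb, 1.67% of the 2403.4 Mb of autosome compared. Windows of different families overlapped by 0.0168 Mb, so a site was nearly always counted in 1 family. Vmn2r genes were the longest, with a median of 18.8 kb against 5.50 kb for Olfr and 1.23 kb for Vmn1r. The plasmid pool held 78338 reads, of which 63031 had a genomic position, and the remobilized pool 2619 and 2116.

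The first comparison asked whether receptor windows took up transposons as densely as the other autosomal sequence. In the plasmid pool they held 12.23 sites per Mb (95% exact Poisson interval 11.2 to 13.4), and the rest of the autosomes 12.26 (12.1 to 12.4). The ratio was 0.998 (0.911 to 1.09), with p = 0.982 by an exact test of 2 rates, adjusted by Benjamini-Hochberg over 8 tests. Olfr windows held 281 sites at 11.5 per Mb, a ratio of 0.935 to the rest (0.829 to 1.05, adjusted exact p = 0.541). Vmn1r windows held 77 sites at 11.6 per Mb, a ratio of 0.944 (0.745 to 1.18, adjusted exact p = 0.833). Vmn2r windows held 133 sites at 14.8 per Mb, a ratio of 1.21 (1.01 to 1.43), and this did not pass the threshold of 0.05 after adjustment (exact p = 0.0356, adjusted p = 0.108). Vmn2r windows were also denser than Olfr windows by 1.29 times (1.04 to 1.59), again without passing (adjusted exact p = 0.102 over 6 pairs). The direction turned for V2R windows of protein-coding members, at 0.917 times the rest and 0.981 times Olfr, and for sites with at least 2 reads, at 0.939 times the rest. The V2R ratio passed when set against the rest of each chromosome (chromosome-matched), at 1.258 (1.052 to 1.492, adjusted exact p = 0.0446). It also passed without chromosome 17, at 1.344 (adjusted exact p = 0.0203).

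**Figure D1:**
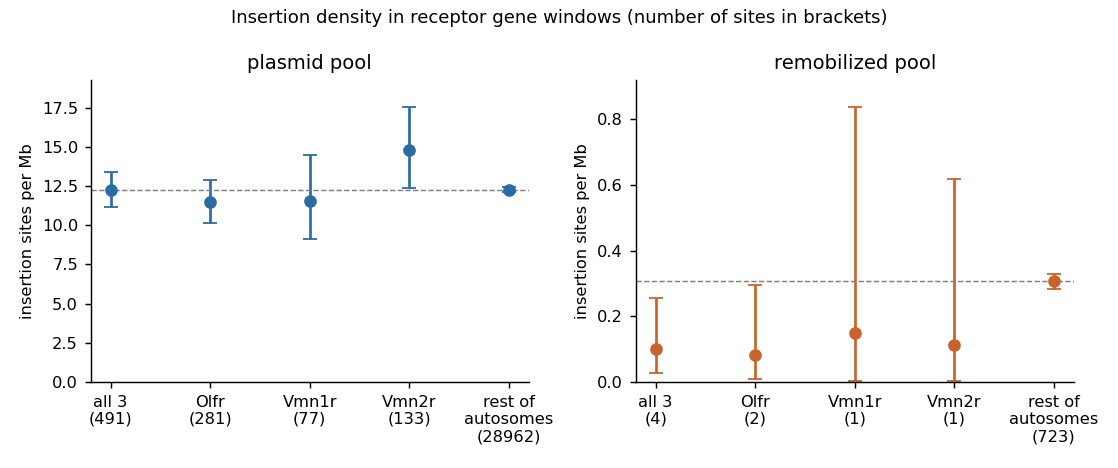
Insertion sites per Mb in windows of 10 kb around Olfr, Vmn1r and Vmn2r genes, in all 3 together and in the rest of the autosomes (dashed line), for the plasmid pool (left) and the remobilized pool (right). Points are single libraries and bars are 95% exact Poisson intervals. The 3 families together sat at 12.23 sites per Mb against 12.26 in the rest in the plasmid pool, and in the remobilized pool all 3 points lay below the line on 1 or 2 sites each.

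The ratio depended on the region used for comparison. Sequence within 10 kb of other protein-coding genes held 13.5 sites per Mb, the 1 Mb on each side of the receptor windows 14.1, and sequence over 10 kb from any annotated gene 10.7. All 3 families together were thus less dense than their flanks, at 0.865 times (0.784 to 0.953, adjusted exact p = 0.00791). Against these flanks Olfr was at 0.811 times (adjusted exact p = 0.00262). Vmn1r, at 0.818, and Vmn2r, on the other side at 1.046, did not pass. All 3 together were denser than sequence far from genes, at 1.14 times (1.04 to 1.25, adjusted exact p = 0.0185). Olfr windows taken alone were less dense than windows of other protein-coding genes, at 0.852 times (0.754 to 0.958, adjusted exact p = 0.0184). Against the same region all 3 families together had a ratio of 0.909 (adjusted exact p = 0.0748), Vmn1r 0.859 and Vmn2r 1.099, and none of these passed.

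Counted over 2394 bins of 1 Mb, the variance of site numbers was 2.86 times their mean in the plasmid pool and 18.7 times in the remobilized pool. Without the 10 fullest bins these were 1.52 and 1.42. The exact tests treat sites as independent, so the p-values here are smaller and the intervals narrower than such clumping warrants.

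The remobilized pool had 4 sites in receptor windows where the density of the rest of its autosomes gives 12.3. This was 0.0996 sites per Mb (0.0271 to 0.255) against 0.306 (0.284 to 0.329), a ratio of 0.326 (0.0885 to 0.837), which did not pass after adjustment (exact p = 0.0130, adjusted p = 0.104). Olfr had 2 of the sites, Vmn1r 1 and Vmn2r 1, and no family passed against the rest of the autosomes. Against windows of other protein-coding genes (0.419 sites per Mb) the ratio was 0.238 (0.0645 to 0.612, adjusted exact p = 0.00463). With a margin of 50 kb the ratio of all 3 families to the rest was 0.514. Olfr alone, on its 2 sites, had a ratio of 0.195 to windows of other protein-coding genes (0.0235 to 0.706, adjusted exact p = 0.0184). Against sequence over 10 kb from any gene (0.159 per Mb) the ratio of all 3 families was 0.628 (0.169 to 1.65, adjusted exact p = 0.797).

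The best-supported of the 4, with 2 reads, lay at chromosome 6 position 90068247, 3646 bp downstream of the V1R gene Vmn1r49. The other 3 had 1 read each. They lay at chromosome 2 position 90395186, 3497 bp upstream of Olfr1274-ps, at chromosome 17 position 20018553, 9865 bp downstream of Vmn2r104, and at chromosome 19 position 13245210, 8810 bp downstream of Olfr1463. None was inside a receptor gene. The nearest plasmid pool sites were 4.12 kb away for the site by Vmn1r49 and between 48.2 and 83.7 kb away for the others.

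As a share of all autosomal sites, receptor windows took 1.67% in the plasmid pool (95% Clopper-Pearson interval 1.52 to 1.82) and 0.550% in the remobilized pool (0.150 to 1.40). The odds ratio was 0.326 (Fisher's exact p = 0.0166, adjusted over 4 tests 0.0663). Chromosome 6 held 244 of the 727 autosomal sites of the remobilized pool, of which 1 was in a receptor window, against 33 of 1755 in the plasmid pool (Fisher's exact p = 0.114, unadjusted). On the other autosomes it was 3 of 483 against 458 of 27698 (Fisher's exact p = 0.0988, unadjusted). The shares thus lay on the same side within and outside chromosome 6, and neither subset passed alone.

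Distance from the receptor genes showed how both pools were laid out around them. In the plasmid pool the density was 13.9 sites per Mb inside the genes, 11.3 up to 10 kb away, 12.8 from 10 to 50 kb, 16.9 from 50 to 100 kb and 15.9 from 100 to 500 kb. In the remobilized pool the same bins gave 0, 0.156, 0.258, 0.362 and 0.448 sites per Mb. The bins inside the genes, 14.57 Mb in all, held 0 of its sites, where the density of the rest, chromosome 6 included, gives 4.46. A count of 0 allows up to 0.206 sites per Mb by a floor of 3 counts (0.253 as the upper limit of the exact Poisson interval). The 5 values of the remobilized pool were ordered by distance, but they rest on 0, 4, 6, 5 and 33 sites, neighbouring intervals overlapped, and no test was made of the order.

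**Figure D2:**
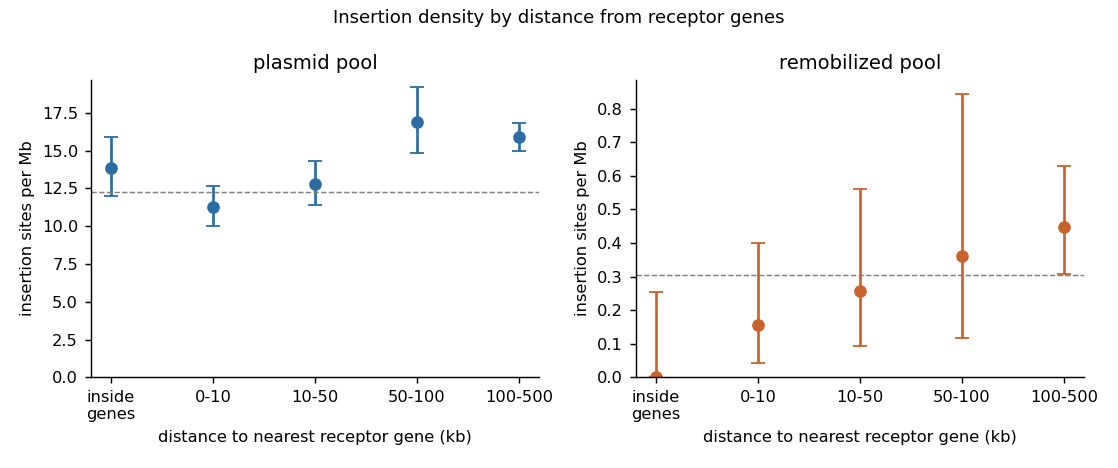
Insertion sites per Mb inside receptor genes and in 4 bins of distance (kb) to the nearest receptor gene, for the plasmid pool (left) and the remobilized pool (right). Points are single libraries, bars are 95% exact Poisson intervals and the dashed line is the rest of the autosomes. The plasmid pool ranged from 11.3 to 16.9 per Mb, and the remobilized pool from 0 inside the genes to 0.448 at 100 to 500 kb.

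Windows under 500 kb apart were joined into 97 clusters, and 27 of these had at least 0.5 Mb of windows, 32.1 Mb in all. The density of these 27 in the plasmid pool ran from 7.33 to 21.4 sites per Mb with a median of 11.4, and the Poisson interval of every one of them included the 12.26 of the rest. The longest cluster, Olfr987 to Olfr1274-ps on chromosome 2 (85320779 to 90413897), holds 287 Olfr genes and had 50 sites in 4.386 Mb, 11.4 per Mb (8.461 to 15.03). The Olfr543 to Olfr692 cluster on chromosome 7, with 156 Olfr genes, had 23 sites at 10.4 per Mb. The Olfr160 to Olfr986 cluster on chromosome 9 had 25 sites at 11.5 per Mb. These 3 large Olfr clusters did not differ from one another or from the rest beyond their counting intervals.

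The others of the 10 longest clusters ranged from 7.36 to 19.3 sites per Mb. The mixed V1R and V2R cluster Vmn2r90 to Vmn1r-ps150 on chromosome 17 had 17 sites at 8.25 per Mb (4.80 to 13.2). The Olfr90 to Olfr136 cluster of that chromosome, not among the 10 longest, had 13 sites at 12.4 per Mb. On chromosome 7 the Vmn1r91 to Vmn1r183 cluster of 78 V1R genes had 12 sites at 7.36 per Mb (3.801 to 12.85), and Vmn2r-ps62 to Vmn2r79 had 17 sites at 10.5 per Mb. The Olfr1417 to Olfr1505 cluster on chromosome 19 had 14 sites at 9.70 per Mb. Olfr1370 to Vmn1r-ps135 on chromosome 13 had 19 sites at 14.4 per Mb, and Olfr9 to Vmn2r87 on chromosome 10 had 11 sites at 8.66 per Mb. Vmn2r-ps35 to Vmn2r37 on chromosome 7, made of 30 V2R genes, had 22 sites at 19.3 per Mb (12.1 to 29.2).

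The 3 densest of the 27 were Vmn1r-ps25 to Vmn1r54 on chromosome 6, with 11 sites at 21.4 per Mb (10.7 to 38.3), Olfr172 to Olfr209 on chromosome 16, with 10 sites at 19.4 per Mb, and Vmn2r111 to Olfr752-ps1 on chromosome 17, with 10 sites at 19.4 per Mb. The 3 sparsest were Olfr24 to Olfr18 on chromosome 9, with 8 sites at 7.33 per Mb (3.16 to 14.4), Vmn1r91 to Vmn1r183, and Olfr1275 to Olfr1319-ps1 on chromosome 2, with 7 sites at 8.11 per Mb. No site of the plasmid pool fell in 31 of the 97 clusters, and the longest of these had 0.224 Mb of windows.

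Among the 70 clusters under 0.5 Mb, the interval lay below the rest in 1 and above it in 5, and included it in 64. These 6 are named after their values were seen. Below was Olfr458 to Olfr47 on chromosome 6, with 1 site in 0.491 Mb, 2.04 per Mb (0.0516 to 11.3). Above were Olfr465-ps1 to Vmn2r-ps109 on chromosome 13, with 11 sites at 27.9 per Mb (13.9 to 50.01), and, on chromosome 11, Olfr30 to Olfr311, with 10 sites at 25.8 per Mb, and Olfr1373 to Olfr1371, with 4 sites at 62.0 per Mb. The other two were V2R pseudogene clusters of chromosome 4, described next. No test was made over clusters.

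**Figure D3:**
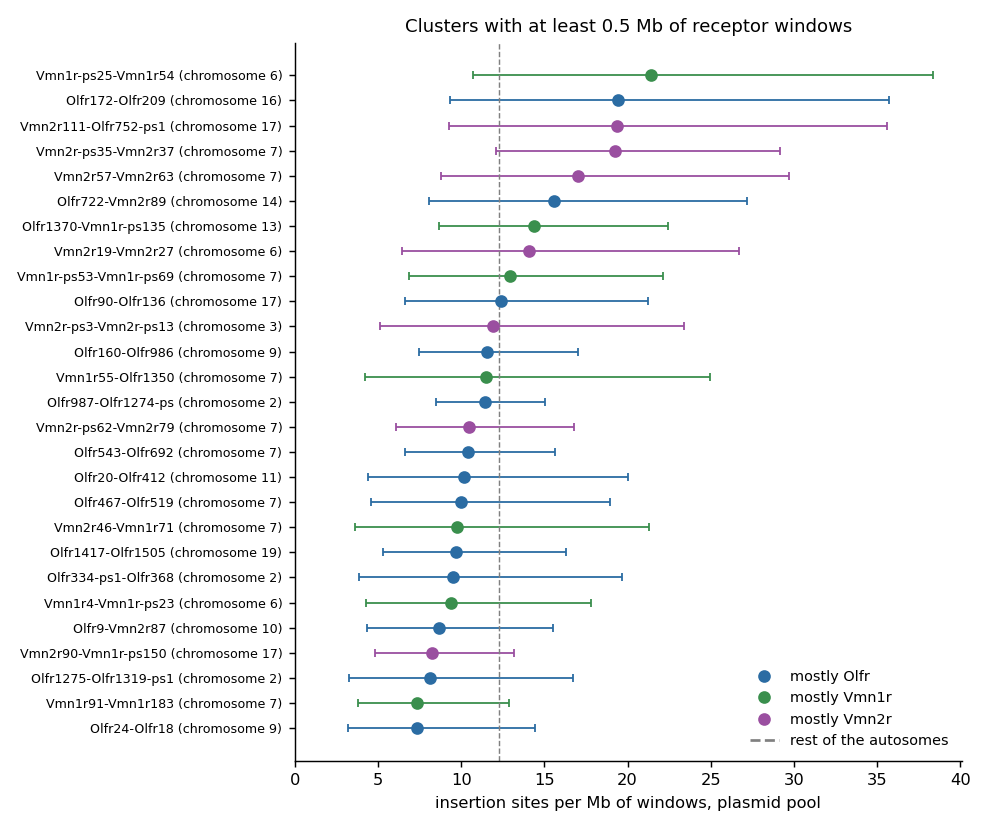
Plasmid pool insertion sites per Mb in the 27 clusters with at least 0.5 Mb of receptor windows, ordered by density and coloured by the family with most genes. Points are values of 1 library, bars are 95% exact Poisson intervals and the dashed line is the rest of the autosomes. Every interval crosses the line, and the points run from 7.33 to 21.4.

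By chromosome, the receptor windows differed from the rest of their own chromosome on chromosome 4 alone among 19 autosomes. There 24 sites in 0.819 Mb gave 29.3 per Mb against 12.7, a ratio of 2.31 (1.47 to 3.44, adjusted exact p = 0.00481). The 10 chromosomes with at least 1 Mb of windows ranged from 8.42 to 18.4 sites per Mb, 6 below and 4 above their rest, and none of them passed. Of the 24 sites, 16 lay in Vmn2r windows. These 8 V2R genes, 1 of them protein-coding, held them in 0.157 Mb, 102 per Mb (58.3 to 166), against 13.2 (11.0 to 15.9) in the V2R windows of the other autosomes. Of these, 8 sites lay in the windows of Vmn2r-ps15 to Vmn2r-ps16 and 6 in those of Vmn2r-ps18 to Vmn2r-ps20. These windows covered 0.0611 and 0.0610 Mb. A share of 50% of the 16 sites had 1 read, against 59.0% of the other V2R sites. Without chromosome 4 the ratio of Vmn2r windows to the rest fell from 1.21 to 1.08.

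Pseudogene windows were then set against windows of protein-coding members, a comparison chosen after the V2R values had been seen. V2R windows that held pseudogenes alone had 66 sites in 3.036 Mb, 21.7 per Mb (16.8 to 27.7). V2R windows of protein-coding members had 67 sites in 5.959 Mb, 11.2 per Mb (8.71 to 14.3). The ratio was 1.93 (1.36 to 2.76, exact p adjusted over 3 families 6.44e-04). It was 1.63 without chromosome 4 (1.11 to 2.39, adjusted exact p = 0.0306), and 1.70 (0.966 to 2.98, adjusted exact p = 0.145) for sites with at least 2 reads. For Vmn1r the ratio was 1.51 (0.878 to 2.52) and for Olfr 0.994 (0.625 to 1.51), neither past the threshold. V2R windows of protein-coding members had a ratio of 0.917 to the rest of the autosomes, with an interval from 0.711 to 1.17.

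Sequence copies are common in these genes. Of all 31-base words in the coding exons of the 3 families, 34.5% also occurred elsewhere in autosomal exons, against 6.44% for other protein-coding genes. The share was 56.9% for Vmn2r, 48.8% for Vmn1r and 25.9% for Olfr. Words of 93 bases gave 13.7% against 4.05%. The part that reads of repeated sequence played in the site numbers was not tested.

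Sites with a single read were more frequent in receptor windows than elsewhere in the plasmid pool. Sites with a single read made up 52.1% of the 491 sites (256 sites, Clopper-Pearson interval 47.6 to 56.6) and 45.9% of the 28962 sites in the rest (45.3 to 46.5). The odds ratio was 1.28 (Fisher's exact p = 0.00701, adjusted over 8 tests 0.0280). V2R windows stood at 57.9% (49.0 to 66.4, odds ratio 1.62, adjusted Fisher's exact p = 0.0280). That V2R difference did not pass without chromosome 7 (10.7 points, adjusted Fisher's exact p = 0.273) or against the 1 Mb flanks (8.85 points, adjusted p = 0.404). Olfr windows were at 49.5% and Vmn1r windows at 52.0%, and neither passed (both adjusted p = 0.421, Fisher's exact test). The mean was 1.88 reads per site in receptor windows and 2.05 in the rest.

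Receptor windows held smaller shares than the rest at 2, 3 and 4 reads and at 5 or more. Sites with at least 5 reads were 4.89% in receptor windows (24 sites) and 5.99% in the rest (unadjusted Fisher's exact p = 0.338). The ratio of sites per Mb to the rest was 0.883, 0.856 and 0.814 for sites with at least 2, 3 and 5 reads, none past the threshold. The flanks of 1 Mb had 49.1% of sites with 1 read, and against them the difference of 3.09 points did not pass (adjusted p = 0.879, Fisher's exact test). Without chromosome 7, which holds 11.44 Mb of the windows, the difference over the rest was 6.24 points and did not pass either (adjusted p = 0.151, Fisher's exact test). In the remobilized pool 3 of the 4 receptor sites had 1 read, against 42.1% of its other sites.

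**Figure D4:**
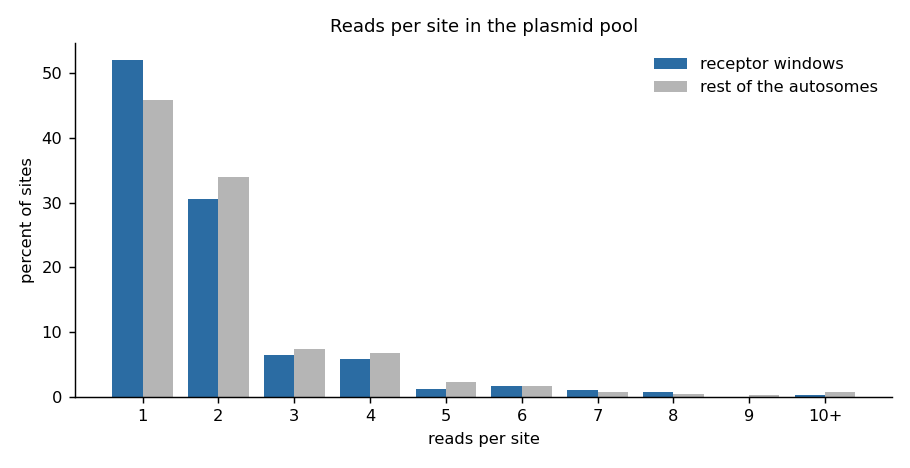
Percent of plasmid pool sites by number of reads per site (1 to 9, and 10 or more), for the 491 sites in receptor windows and the 28962 in the rest of the autosomes. Bars are shares of sites in 1 library, with no replicate. Receptor windows exceed the rest at 1 read, 52.1% against 45.9%, and fall short of it at 2 reads, 30.6% against 33.9%.

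The best-supported insertion of the plasmid pool in any receptor window had 10 reads, against a maximum of 45 in the rest. It lay in an intron of Olfr329-ps at chromosome 11 position 58544103. Next among Olfr came 8 reads at chromosome 2 position 86616353, 8784 bp upstream of Olfr1083-ps, and 8 reads at chromosome 2 position 87781092, in an intron of Olfr152. For V2R genes it was 8 reads in a non-coding stretch of an exon of Vmn2r22 (chromosome 6 position 123634348) and 8 reads in an intron of Vmn2r79 (chromosome 7 position 87001608). The third V2R place was shared at 5 reads by sites at Vmn2r-ps15, Vmn2r-ps38 and Vmn2r12. For V1R genes it was 7 reads in untranslated or non-coding exon sequence of Vmn1r91 (chromosome 7 position 20102529), followed at 6 reads by sites at Vmn1r-ps48, Vmn1r79 and Vmn1r214. A well-supported site thus occurred in each family.

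Of the 491 plasmid pool sites, 9 lay in coding exons, 60 in untranslated or non-coding exon sequence, 133 in introns, 171 upstream and 118 downstream of the nearest receptor gene. The density was 5.53 sites per Mb in coding exons (2.53 to 10.5), 13.9 in other exon sequence, 15.4 in introns (12.9 to 18.3) and 11.3 outside the genes. Coding exons of other protein-coding genes held 9.57 sites per Mb (8.54 to 10.7) and their introns 13.6. Upstream flanks were denser than downstream flanks, at 13.0 against 9.50 sites per Mb, a ratio of 1.37 (1.076 to 1.745, unadjusted exact p = 0.00951, a comparison chosen after the counts had been seen). By count, Olfr had 105 upstream and 67 downstream sites (unadjusted exact binomial p = 0.00464), Vmn2r 35 and 24 (p = 0.193 by the same exact test) and Vmn1r 31 and 27 (p = 0.694, exact). Whether the families differ in this was not tested.

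Inside genes, 102 insertions were read on the strand of the receptor gene and 100 on the opposite strand, 50.5% on the same strand (43.4 to 57.6, adjusted p = 1 by an exact binomial test over 4 sets). The shares were 49.5% of 109 for Olfr, 47.3% of 74 for Vmn2r and 68.4% of 19 for Vmn1r (interval 43.5 to 87.4), none past the threshold. The count of same-strand and opposite-strand insertions was thus nearly equal over the 3 families.

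Of the 1960 genes, 177 (9.03%) had an insertion within their bounds in the plasmid pool. By family these were 102 of 1399 Olfr genes (7.29%), 19 of 326 Vmn1r genes (5.83%) and 56 of 235 Vmn2r genes (23.8%). The order follows the median gene lengths given above, and V2R genes are the longest. Inside the receptor genes the density was 13.9 sites per Mb (12.0 to 15.9), against 12.26 in the rest of the autosomes. No share of other genes is given for comparison. With the flanks of 10 kb included, 551 genes (28.1%) had a site. No gene held more than 3 sites, and 5 genes reached that number: Olfr56 (156 kb long), Vmn2r7 (160 kb), Vmn2r79 (48.8 kb), Vmn2r62 (29.5 kb) and the pseudogene Vmn2r-ps38 (13.4 kb).

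TA content was read from the annotated exons and the RefSeq promoters, the sequence at hand. Receptor coding exons held 51.6 TA per kb and those of other protein-coding genes 30.7. All exons held 69.2 against 45.6. In promoters it was 75.8 (1265 promoters, matched to 1260 of the receptor genes) against 30.4 (17925 promoters), with a GC content of 36.2% and 58.3%. The motif is its own reverse complement, so both strands give the same count. At least 1 TA was present in all 1265 receptor promoters and in 98.7% of the other promoters. The 7 promoter sites printed above came to 18.4 sites per Mb of receptor promoter (7.42 to 38.0).

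Per TA, receptor exons held fewer insertions than the exons of other protein-coding genes, a comparison chosen after the data had been seen. Receptor exons had 1.68 sites per 10000 TA and other protein-coding genes 2.67, a ratio of 0.628 (0.485 to 0.802, exact p adjusted over 8 tests 6.35e-04). In coding exons it was 1.07 against 3.11, a ratio of 0.344 (0.156 to 0.661, adjusted exact p = 7.17e-04), resting on the 9 sites named above. By family, Olfr passed, with ratios of 0.568 in exons (0.405 to 0.775) and 0.230 in coding exons (0.0621 to 0.593) (both adjusted exact p at or below 7.17e-04). The exon ratios of Vmn1r, 0.743 (0.394 to 1.28), and Vmn2r, 0.746 (0.416 to 1.24), did not pass. Nor did their coding-exon ratios, 0.902 for Vmn1r (0.185 to 2.66) on 3 sites and 0.370 for Vmn2r (0.0446 to 1.35) on 2 sites, and the difference between families was not tested.

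The same exons compared per Mb did not differ past the threshold, with a ratio of 0.953 (0.736 to 1.22, unadjusted exact p = 0.761) for exons and 0.578 (0.262 to 1.11) for coding exons. Olfr coding exons were lower on that scale too, at 0.375 on 4 sites (0.101 to 0.968, unadjusted exact p = 0.0395). With sites of at least 2 reads the ratio per TA was 0.573 in exons and 0.271 in coding exons, and with merging within 1 kb it was 0.683 and 0.478 (0.216 to 0.924, unadjusted exact p = 0.0265). The repeated sequence given above is more common in the receptor exons, and its part in the ratio was not tested. Among 67 sites inside receptor exons with enough sequence on both sides, 50 (74.6%, interval 62.5 to 84.5) had a TA exactly at the deposited base and 65 (97.01%) had one within 2 bp. Over all exons the shares were 71.4% of 1437 sites and 92.8%.

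**Figure D5:**
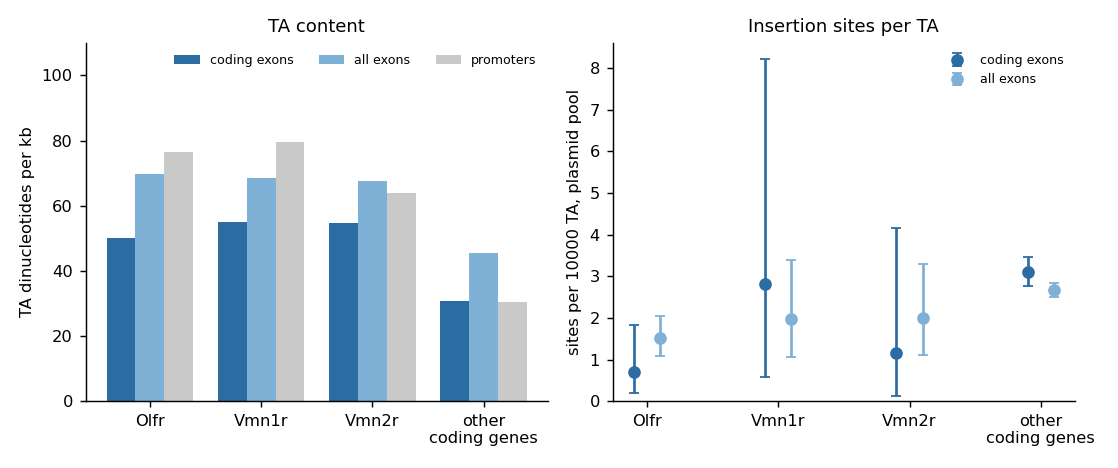
TA dinucleotides per kb in coding exons, all exons and RefSeq promoters (left) and plasmid pool insertion sites per 10000 TA in coding exons and all exons (right), for Olfr, Vmn1r, Vmn2r and other protein-coding genes. Bars on the left are counts in reference sequence without error, and bars on the right are 95% exact Poisson intervals for 1 library. Receptor genes are richer in TA in all 3 kinds of sequence, and Olfr exons lie below the exons of other genes per TA.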

How the data were processed

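The authors deposited, for each library, single-base positions with a strand and a read count, with no normalization stated. Per the submitters' processing notes the build was mm10 and the tools included BWA, FastQC and deepTools. The treatment of duplicate reads and any mapping quality filter are not given in the sources used here. Positions within 10 bp on either strand were merged into 1 site at the best-supported base, with no minimum number of reads. Spans ran from position 3000001 to the end of the last annotated gene of each autosome, since no genome sequence was used, which left out 7 sites of the plasmid pool. The parental sample was not analysed here.

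Densities were compared by exact conditional tests of 2 rates and shares by Fisher's exact tests, all two-sided, with Benjamini-Hochberg adjustment and a threshold of 0.05 (Python 3.11.15, NumPy 2.4.6, SciPy 1.17.1). Intervals are 95% exact Poisson or Clopper-Pearson intervals, and the floor is 3 counts. Reads carry no molecular identifiers. Named were the 10 longest clusters, the 3 densest and 3 sparsest of at least 0.5 Mb, all 4 remobilized sites, the 3 best-supported sites of each family with ties, and coding-exon sites by reads. Other genes were named after their values were seen. The members, lists and tests were chosen with earlier results of these data known. Alternatives changed merging, minimum reads, margins, gene types, chromosomes and the comparison region. The test of 2 rates, the counting of sites in windows and the merging were run on simulated data. The simulated sites were independent, so the clumping given above was not covered.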

Additional observations from a re-analysis of the deposited data

Results flagged for a closer look

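A site in data outside the 2 pools fell in a receptor window. The clonal line named 260kb had 22 reads at chromosome 1 position 174103501, 277 bp downstream of the olfactory receptor gene Olfr427. It was 1 of 56 autosomal sites in the 9 clonal lines, where the windows cover 1.67% of the compared autosomes and took 1.67% of the autosomal sites of the plasmid pool, so a single such site is not an excess. The control without transposons had 0 sites. No replicate of this clone was available, and whether the site is an insertion of that clone was not tested.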

How the results depend on the processing

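Over 32 results and 356 alternatives, 297 kept their direction and their side of the threshold. No paired analysis was possible because each pool is 1 library. Ratios that crossed 1 lay in intervals that include 1, except for 1.143 below.

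The plasmid pool ratio of all 3 families to the rest (0.998) became 1.009 with merging within 100 bp, 1.003 within 1 kb, 1.132 with no margin, 1.029 with 5 kb, 1.015 with 50 kb and 1.006 without dense bins. Without chromosomes 6, 2, 7, 9, 10, 17 and 19 in turn it was 1.007, 1.021, 1.013, 1.02, 1.01, 1.011 and 1.007. It was 1.143 against sequence far from genes and 0.865 against 1 Mb flanks. For Olfr the ratio was 1.113 with no margin, 1.071 against sequence far from genes, 0.852 against other protein-coding genes and 0.811 against flanks. For Vmn1r it was 1.023 with at least 5 reads, 1.001 with a 5 kb margin, 1.081 against sequence far from genes and 1.108 without chromosome 7. For Vmn2r it was 0.939, 0.989 and 0.757 with at least 2, 3 and 5 reads and 0.917 for protein-coding members. It passed the threshold against sequence far from genes (1.382), without chromosome 17 (1.344) and chromosome-matched (1.258).

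In the remobilized pool the ratio of all 3 families passed against other protein-coding genes (0.238), against flanks (0.227), without chromosome 17 (0.270) and chromosome-matched (0.289), as did Olfr against other protein-coding genes (0.195) and flanks (0.186). The ratio of all 3 families was closer to 1 with a margin of 50 kb (0.514), without chromosome 7 (0.446) and without chromosome 6 (0.374, adjusted exact p = 0.408). The odds ratio between pools for Vmn1r was 1.023 with at least 2 reads, on 1 site of the remobilized pool.

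The excess of 1-read sites no longer passed with no margin (4.01 points), as a share under 5 reads (1.103), without chromosome 7 (6.24) or against flanks (3.09). For Vmn2r this held as a share under 5 reads (2.23), without chromosome 7 (10.7) and against flanks (8.85). With no margin it was -2.87 points for Olfr and -9.15 for Vmn1r, which was 11.6 and passed with 50 kb and was -0.503 as a share under 5 reads. The last was 15.6 for Vmn1r in the remobilized pool, on 1 site.

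Vmn1r over Olfr was 0.960 with at least 2 reads, 0.831 with no margin and 0.911 for protein-coding members, where Vmn2r over Olfr was 0.981. The share on the strand of the gene was 50.5% and 50.9% for Olfr with protein-coding members and with the margin, and 59.3% for Vmn2r with at least 2 reads. Olfr pseudogene over coding windows was 1.014 without chromosome 4 and 1.257 with at least 2 reads, and Vmn2r 1.701 with at least 2 reads no longer passed. The causes were not tested. The median was 1 read per site in receptor windows and 2 in the rest, and the effect of depth on which insertions were seen was not tested.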

Other observations

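Chemosensory receptor genes outside the 3 families had 22 plasmid pool sites in 1.703 Mb of windows, 12.9 per Mb (95% exact Poisson interval 8.10 to 19.6), over 86 genes of 5 families. The 40 bitter taste receptor genes (Tas2r) had 10 of these sites at 15.9 per Mb and also 1 site of the remobilized pool. The 19 Ms4a genes had 7 sites. The 16 trace amine-associated receptor genes (Taar), which also serve in the olfactory epithelium, had 2, the 8 formyl peptide receptor genes (Fpr) 2 and the 3 Tas1r genes 1.

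Autosomal genes of olfactory signalling and of receptor choice, 17 in all, had 18 plasmid pool sites at 10.7 per Mb (6.33 to 16.9), in or near 6 of the genes. Ano2, which encodes a calcium-activated chloride channel of olfactory cilia, had 6 sites, all inside the gene, at 16.2 per Mb of its 0.370 Mb window (5.96 to 35.3). Ebf1, a transcription factor of the olfactory lineage, also had 6, all inside, at 14.6 per Mb of 0.411 Mb (5.36 to 31.8). Both intervals include the 12.26 of the rest of the autosomes. Trpc2, the transduction channel of the vomeronasal organ, had 3, of which 1 was inside, at 90.1 per Mb of 0.0333 Mb (18.6 to 263). Its interval lies above 12.26, on 3 sites and among 17 genes, and no test was made. Genes such as Adcy3, Gnal, Omp, Lhx2 and Ldb1 had 0 sites within 10 kb, in windows of 0.0221 to 0.159 Mb, and their intervals include that density too.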
